A study of Mus musculus with 2 samples.

Results

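The cells described here are 320 single brain cells sorted as microglia from PARK7/DJ-1 knock-out (KO) mice 24 h after an intraperitoneal injection of lipopolysaccharide (LPS), and the question is how they differed from one another within their own library. They were chosen as the barcodes of the KO LPS library with at least 500 UMIs and at least 100 genes, with missing values read as 0. Over both libraries of the series, 1747 barcodes passed the same limits, so that the KO LPS cells were 320 of 1747. The other 1427 came from the wildtype LPS library, and no contrast between the genotypes is made.

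The KO allele, Park7 Gt(XE726)Byg, is a gene trap carried in every cell and backcrossed to C57BL/6NCrl. Adult littermates were used. The library pooled 2 mice, 1 female and 1 male, and the sort kept living CD11b+CD45int cells. Drop-seq encloses each cell with a barcoded bead that captures the 3' ends of transcripts, and a unique molecular identifier (UMI) marks each captured molecule, so that a count does not grow with transcript length. With 1 library there is no replicate, the cells are not replicates of a condition, and no test and no p-value is given.

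Microglia are the resident macrophages of the brain. At rest they express a set of genes for sensing and clearing their surroundings, called homeostatic, among them the purinergic receptor P2ry12, the fractalkine receptor Cx3cr1, the protease inhibitor Cst3, the protease Ctss and the complement subunits C1qa, C1qb and C1qc. LPS, a component of bacterial membranes, is sensed through Toll-like receptor 4 and drives cytokine, chemokine and interferon-stimulated genes in these cells, usually with lower homeostatic transcripts. Park7 encodes DJ-1, whose loss causes an inherited form of parkinsonism and which takes part in the defence against oxidative stress.

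The KO LPS library held 684738 UMIs in 9999 barcodes, of which 381305 (55.7%) were in the 320 cells. A cell had between 501 and 4292 UMIs, with a median of 963.5, and between 197 and 1941 genes, with a median of 637. The 5 cells just inside the limit had 501 to 508 UMIs and the 5 barcodes just outside it 499 to 493. Another 9069 barcodes with at most 100 UMIs held 198723 UMIs and served as the reference for free RNA. No member barcode was shared with a member of the wildtype library. Within KO LPS, 2 pairs of member barcodes differed by 1 base, and leaving out the shallower of each pair left the counts below at 260 genes and 40 pairs of genes, against 261 and 40. Park7 itself had 1 UMI in 1 of the 320 cells.

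The promoters of 4 genes on which the results turn are shown first, because Cst3 varied from cell to cell together with Ctss and with C1qb, while Malat1 ran against Cst3. The sequences are from RefSeq on GRCm38.p6 and run from 250 bases before to 50 bases after the start of the gene, 5′ to 3′ on its strand. Capitals mark GAGGAA, a form of the site bound by the macrophage factor PU.1 and called the core here, or the same letters on the other strand (TTCCTC). The windows are chr2:148875463-148875762 on the minus strand for Cst3, chr3:95526536-95526835 on the plus strand for Ctss, chr4:136886151-136886450 on the minus strand for C1qb and chr19:5802623-5802922 on the minus strand for Malat1.
Cst3: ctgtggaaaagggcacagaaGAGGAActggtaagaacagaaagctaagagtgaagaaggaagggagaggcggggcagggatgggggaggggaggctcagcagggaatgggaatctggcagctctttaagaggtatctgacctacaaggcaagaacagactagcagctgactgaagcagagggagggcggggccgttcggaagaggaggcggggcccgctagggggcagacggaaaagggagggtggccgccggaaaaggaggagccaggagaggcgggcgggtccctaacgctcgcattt
Ctss: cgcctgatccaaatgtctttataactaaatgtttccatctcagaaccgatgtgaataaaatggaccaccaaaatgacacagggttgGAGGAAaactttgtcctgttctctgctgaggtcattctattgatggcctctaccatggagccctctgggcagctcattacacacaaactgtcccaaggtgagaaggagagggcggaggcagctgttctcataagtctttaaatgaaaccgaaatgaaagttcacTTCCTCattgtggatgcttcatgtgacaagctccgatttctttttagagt
C1qb: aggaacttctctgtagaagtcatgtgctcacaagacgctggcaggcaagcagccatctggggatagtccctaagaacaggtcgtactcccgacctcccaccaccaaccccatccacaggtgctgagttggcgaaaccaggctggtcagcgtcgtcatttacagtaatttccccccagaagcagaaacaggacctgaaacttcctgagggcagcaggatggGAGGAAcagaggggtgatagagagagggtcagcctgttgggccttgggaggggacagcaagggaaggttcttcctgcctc
Malat1: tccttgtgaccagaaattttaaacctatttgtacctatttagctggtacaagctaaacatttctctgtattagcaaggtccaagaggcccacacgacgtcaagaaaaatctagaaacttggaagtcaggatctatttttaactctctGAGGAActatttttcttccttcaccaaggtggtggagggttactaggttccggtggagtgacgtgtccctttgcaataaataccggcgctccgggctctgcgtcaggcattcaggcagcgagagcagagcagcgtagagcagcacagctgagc
The core stood at position -230 from the start of Cst3, at -164 of Ctss with a second copy on the other strand at 1, at -30 of C1qb and at -103 of Malat1. Of 24 homeostatic genes with a promoter in the table, 13 (54.2%) held these letters on either strand, against 9289 of 32851 promoters of the same length (28.3%). The windows of Cx3cr1, P2ry12 and Tmsb4x held no match to these letters on either strand, and other forms of the site were not searched. Among the genes examined for spread below, 219 of 672 with a promoter (32.6%) and, of those above the limit, 62 of 182 (34.1%) held the core. A match is a stretch of letters and was not examined for binding.

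All levels below are UMIs per 500 UMIs of a cell. Malat1, a long non-coding RNA kept in the nucleus (chromosome 19, 5845717 to 5853602, minus strand, GRCm39), was the most abundant transcript, with a mean of 23.8. Per cell it ranged from 0.793 to 63.0 around a median of 21.7. The mitochondrial 16S ribosomal RNA mt-Rnr2 followed with a mean of 14.4 and ranged from 1.58 to 211, with a median of 11.8. Cst3, which encodes cystatin C (chromosome 2, 148713635 to 148717887, minus strand), had a mean of 11.9 and ranged from 0 to 33.5, with a median of 11.4. These 3 transcripts took 10.02% of all UMIs at equal depth and the 15 most abundant ones 15.7%. The remainder was spread over many genes at low levels, and 12617 genes had at least 1 UMI in the 320 cells.

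Below the leading 3, the list was that of a microglial cell. Ctss (cathepsin S) had a mean of 3.93 and Cx3cr1 (chromosome 9, 119877749 to 119898945, minus strand) 3.34. The actin-binding peptide Tmsb4x followed at 3.14 and the cytoskeletal actin Actb at 2.27. C1qb had a mean of 1.93, P2ry12 (chromosome 3, 59123682 to 59170429, minus strand) of 1.84, the lysosomal protease Ctsd of 1.73, the matrix protein Sparc of 1.67, the endoplasmic reticulum chaperone Hsp90b1 of 1.65, C1qc of 1.55 and the cytoskeletal linker Macf1 of 1.53. P2ry12 lies within Med12l in the genome, and it is not stated whether counting used the strand, so its counts could include reads of the other gene.

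**Figure D1:**
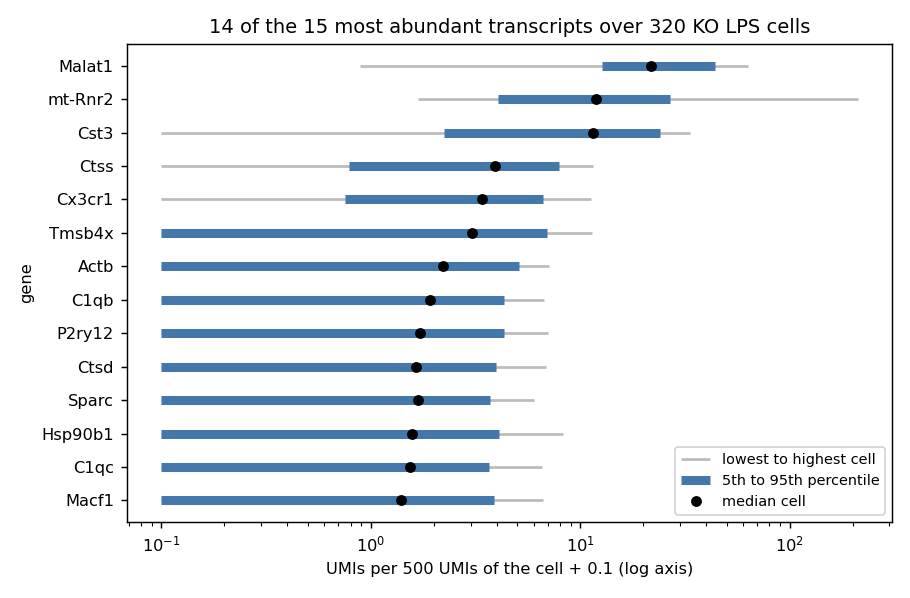
Of the 15 most abundant transcripts, 14 are drawn for 320 KO LPS cells, in UMIs per 500 UMIs of the cell plus 0.1 on a log axis. Points are the median cell, thick bars run from the 5th to the 95th percentile and thin lines from the lowest to the highest cell. The highest cell for mt-Rnr2 (211) lies far from its 95th percentile (26.6), whereas that of Malat1 (63.0) lies close to its own (43.9).

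The label of the cells was checked against Cst3, Cx3cr1 and P2ry12. All 3 markers had a UMI in 284 cells (88.8%) and none in 1 cell. At 500 UMIs per cell, Cst3 was found in 98.6% of cells, Cx3cr1 in 92.5% and P2ry12 in 77.6%. Free RNA drawn to the same 500 UMIs would reach 97.1% for Cx3cr1 and 91.7% for P2ry12, so detection alone does not mark a microglial cell in this library. The summed homeostatic list set a few cells apart from the rest. It had a median of 46.7 and 315 cells lay between 13.1 and 80.3, whereas 5 cells lay below 10.

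Those 5 cells each carried a list of another cell type, and they are the exception to the label. The first had 646 UMIs of Ttr (transthyretin) and 82 of Enpp2 among 2723 UMIs, genes that mark the choroid plexus epithelium, with 137.9 choroid plexus UMIs per 500. The second had 23 UMIs of the glutamate transporter Slc1a2 and 14 of Sparcl1 among 1892 UMIs, both astrocyte genes, and also 13 UMIs of the neuron list (3.44 per 500, the second highest sum of that list). The third had 12 UMIs of the VEGF receptor Flt1 among 2059 UMIs, with the mural cell gene Rgs5 and the endothelial genes Itm2a and Slco1a4 found in no other cell. The fourth, with 660 UMIs and 197 genes, held 10 UMIs of the astrocyte list, and the fifth, with 558 UMIs, held all 13 UMIs of the neuronal non-coding RNA Meg3 among the 320 cells. Meg3 was at 101 CPM (UMIs per 1e6 UMIs) in free RNA. In these 5 cells together, 7892 UMIs included 28 of Cst3, 3 of Cx3cr1 and 2 of P2ry12. At 500 UMIs per cell, P2ry12 was found in 8.96% of these cells and in 78.7% of the other 315, with median depths of 1892 and 961 UMIs. Cst3 was found in 43.3% and 99.5%, and Cx3cr1 in 27.1% and 93.5%. These 3 genes belong to the homeostatic sum that set the 5 cells apart, so their low shares describe those cells and are no separate support for the exception.

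A sixth cell differed in another way. It had 3359 UMIs, a homeostatic sum of 41.2 per 500 within the range of the other cells, and 106 UMIs of the mitosis list. These included 18 of the 28 UMIs of the proliferation marker Mki67 and 11 of the 14 of the topoisomerase Top2a. It also held 8 of 9 UMIs of the spindle motor Kif11 and 7 of 8 of the midzone protein Prc1. The list came to 15.8 per 500 in this cell. A second cell, with 3512 UMIs and a homeostatic sum of 44.0, had 33 mitosis UMIs or 4.70 per 500, just under the 5 per 500 of the mitosis list or of another cell type that each of these 6 cells reached. It held the other 10 UMIs of Mki67 and 12 of the kinetochore motor Cenpe, but none of Top2a or Kif11. The third highest cell per 500 UMIs was at 1.72, from 2 mitosis UMIs among 582. The second cell was kept among the rest. The results below are given with the 5 cells and the sixth and, where they change, without these 6 cells.

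Lists of other blood and border cells held few UMIs. The neutrophil, T or NK lymphocyte and erythroid lists had no UMI in the 320 cells. All 9 neutrophil genes, all 5 T or NK lymphocyte genes and 5 of 6 erythroid genes of the matrix are missing values that were read as 0, so that their 0 says little about those cells. The monocyte list had 12 UMIs in 6 cells, the B lymphocyte list 39 UMIs in 33 cells and the border macrophage list 24 UMIs in 10 cells, with 4 of 9 monocyte, 1 of 4 B lymphocyte and 7 of 9 border macrophage genes missing. No cell reached 5 UMIs per 500 of any of these lists.

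To separate variation among cells from counting, every cell was set to 500 UMIs and the variance of each gene over cells was divided by the variance that random capture alone gives. A ratio of 1 is counting alone, and with 320 cells its counting SD is 0.0792 for a single random draw of 500 UMIs per cell. The ratios are averages over all such draws, whose SD is smaller, more so in deeper cells. The limit was not adjusted for this. Of 906 genes with a mean of at least 0.1 UMI, 261 (28.8%) lay above 1.24, that is 1 plus 3 counting SD. The median ratio was 1.16, the lower and upper quartiles were 1.099 and 1.26, and 13 genes were below 1. Excess spread was therefore small for most genes. Only 42 genes reached 1.5 and 10 reached 2. Depth moved with the count. In the 160 cells at or below the median depth, 239 of 913 genes (26.2%) were above the limit of 1.34 for 160 cells, and in the 160 deeper cells 58 of 887 (6.54%). The part of the averaging over draws in this difference was not tested.

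**Figure D2:**
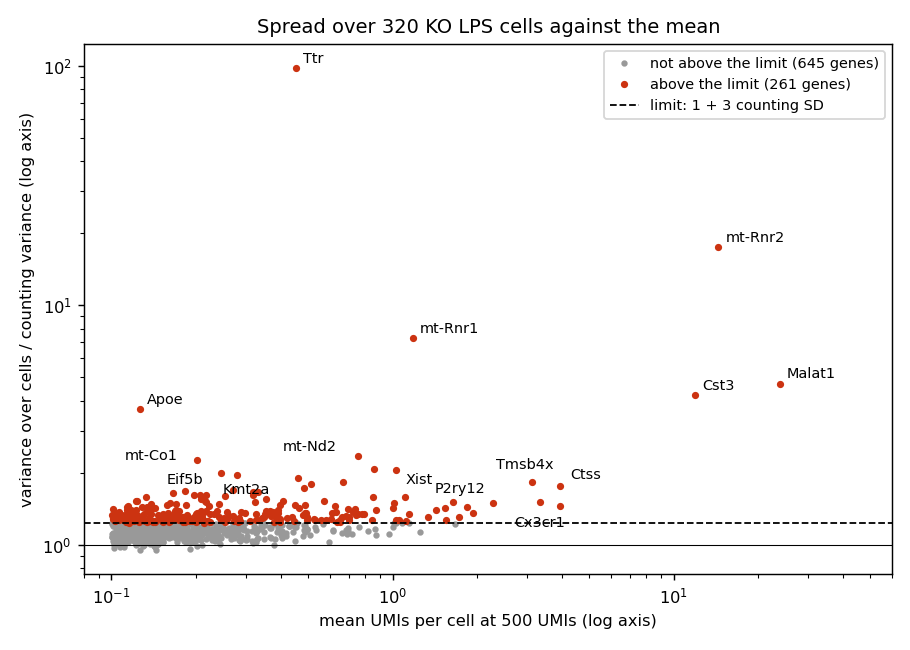
Spread ratio (variance over 320 cells divided by the counting variance, log axis) against the mean per cell at 500 UMIs (log axis), 1 point per gene. Red genes lie above the dashed limit of 1.24 (261 of 906) and the solid line marks counting alone. Ttr, the mitochondrial ribosomal RNAs, Malat1 and Cst3 stand far above the band that holds most genes.

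The largest ratio, 97.9 for Ttr, came from few cells, as 91.7% of its 710 UMIs were in 3 cells, and without the 6 cells described above it was 0.962. Apoe, a lipid carrier that rises in disease-associated microglia, had a ratio of 3.69, with 41.0% of its 100 UMIs in 3 cells. Its mean was only 0.126 and its median 0. The ratios closest to that of Ttr were less concentrated. mt-Rnr2 had a ratio of 17.5, the 12S ribosomal RNA mt-Rnr1 7.29, Malat1 4.70 and Cst3 4.22, and their 3 highest cells held between 3.35% of the UMIs (Malat1) and 15.4% (mt-Rnr1). Without the 6 cells mt-Rnr2 had 5.97 and mt-Rnr1 4.37, and without the 4 cells with over 100 mitochondrial UMIs per 500, described below, 4.85 and 1.83. Beyond counting, the spread of Malat1 was 0.394 of its mean and that of Cst3 0.519, each as a coefficient of variation.

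Below Cst3 and Apoe lay, among others, the mitochondrial messengers mt-Nd2 (2.35), mt-Co1 (2.26), mt-Nd1 (1.89) and mt-Nd5 (1.82), which encode subunits of respiratory complexes. Without the 6 cells these ratios were 1.34, 1.04, 1.08 and 1.27, so that mt-Co1 and mt-Nd1 were no longer above the limit. Gm26924, a predicted transcript without a position in the annotation used, had a ratio of 2.06. Xist, the RNA that silences one X chromosome in female cells, also had 2.06. Tmsb4x had 1.84. Eif5b, a translation initiation factor, had 2.00 and Kmt2a, a histone methyltransferase, 1.96. Of the 203 Kmt2a UMIs, 9 were in 1 cell, the shallow Meg3 cell described above, and without the 6 cells Kmt2a had 1.40 and Eif5b 1.99. Both were lower in the deeper cells. In the 160 cells at or below the median depth, Eif5b had a ratio of 2.42 and Kmt2a of 2.51, and in the 160 deeper cells 1.29 and 1.18, below the limit of 1.34. Without the 6 cells the shallower cells had 2.42 for Eif5b and 1.58 for Kmt2a, still above the limit, and the deeper cells 1.29 and 1.18. The kinase Rock2 had 2.25 and 1.06 in the shallower and deeper cells. Golgb1, a Golgi membrane protein, was above the limit in both and higher in the deeper cells, at 1.504 and 1.75. Malat1 (5.01 and 4.05) and Cst3 (4.83 and 3.63) kept ratios far above the limit in both sets of cells.

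Genes above the limit had longer transcripts than the others. The median of the longest annotated transcript was 6481 bases for genes above the limit and 4991 bases for the rest, and the median gene span 51.0 kb against 36.8 kb. They were also more abundant, with a median mean of 0.208 against 0.155. Across the 890 genes with a position, Spearman's rho of the ratio was 0.230 with transcript length, 0.123 with span and, across all 906, 0.287 with the mean. Genes are not independent replicates, and the part of abundance in the relation with length was not tested.

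Homeostatic genes were above the limit in 16 of 30 measured, against 28.8% of all genes, with a median ratio of 1.25 against 1.16. Cst3 led with 4.22. Ctss had 1.76, and per cell it ranged from 0 to 11.4 around a median of 3.84. Cx3cr1 had 1.51 and ranged from 0 to 11.2 around 3.30. P2ry12 had 1.44 and ranged from 0 to 6.90 around 1.62. So for the receptors P2ry12 and Cx3cr1 most of the variance from cell to cell was of the size that counting gives at 500 UMIs. The growth factor receptor Csf1r (1.13), the transcription factor Sall1 (1.04), Tmem119 (1.13) and the phagocytic receptor Trem2 (1.19) did not exceed the limit. Without the 6 cells, 15 of 30 homeostatic genes were above the limit, and among the deeper 160 cells 7 of 30, where 6.54% of all genes were. The ratio rose with the mean across genes, and the part of abundance in this count was not tested.

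Mitochondrially encoded genes were above the limit in 8 of 8 measured, against 28.8% of all genes, with a median ratio of 2.07. Of the 13 list genes in the matrix, mt-Co2 is listed at 0 in the cells, and mt-Co3, mt-Atp6 and mt-Nd4l have missing values throughout. The summed list had a median of 14.98 per 500 and ranged from 2.66 to 273, and 4 cells exceeded 100. Of these, 3 are among the cells of other types (145, 148 and 273), and the other had 546 UMIs, 127 mitochondrial UMIs per 500 and a homeostatic sum of 24.7. Without these 4 cells, 4 of 8 genes were above the limit, against 27.5% of all genes, and without the 6 cells of other lists also 4 of 8, against 27.2%. Free RNA held more of the list than the cells did, with 84978 CPM in the barcodes of at most 100 UMIs against 38130 CPM in the cells. This came from mt-Rnr2 and mt-Rnr1, whose levels in the cells were 0.435 and 0.196 times those of free RNA, whereas the messenger mt-Cytb was at 1.72 times.

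In the list of nuclear-retained and long transcripts, 11 of 21 genes lay above the limit, against 28.8% of all genes, with a median ratio of 1.26. Malat1 led, followed by Xist (2.06), Kmt2a (1.96), the splicing factor Rbm25 (1.58), the cytoskeletal linkers Dst (1.45) and Macf1 (1.43). Nav3 (1.13), Zfhx3 (1.14) and the splicing factor Rbm39 (1.12) did not exceed it. The summed list had a median of 31.9 per 500, and its correlation with log10 UMIs over the 320 cells was -0.25, so that shallower cells held more of it. In the deeper 160 cells 5 of 21 genes were above the limit, where 6.54% of all genes were.

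Of the cytosolic ribosomal protein genes, 0 of 25 measured were above the limit, against 28.8% of all genes, with a median ratio of 1.11. The sum of all 85 had a ratio of 2.66. Per cell the sum ranged from 0 to 25.6 around a median of 6.39. Each gene was low, the highest mean being that of Rpl13a at 0.348, and 20 of 21 pairs among the 7 genes with a mean of at least 0.2 had a correlation above 0, with a median of 0.06.

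Lysosomal and disease-associated genes were above the limit in 5 of 16, near the share of all genes: Apoe, the cathepsins Ctsd (1.31), Ctsl (1.32) and Ctsb (1.27), and Gusb (1.33). Ctsd was the most abundant of them. The adaptor Tyrobp (1.21) and the lysosomal membrane protein Laptm5 (1.19) were not. The summed list had a ratio of 1.88 and ranged from 0.682 to 23.9 around a median of 7.04.

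Those activation genes that the matrix lists were low in nearly all of the 320 cells. Of 33 inflammatory genes 23 had a UMI, and Nfkbia, the inhibitor of NF-kB, and the LPS co-receptor Cd14 were the only members with a mean of 0.1 or more, at 0.101 each, with ratios of 1.20 and 1.22. Of genes known to respond to LPS, Saa3 is listed at 0 in the 320 cells, Lcn2, Cxcl10 and Ptgs2 have missing values, and Il1b had 1 UMI. In all, 8 of the 33 genes have missing values, which were read as 0, and it is not known whether these genes were absent from the cells or lost from the table. Of the interferon list, Ifit3, Oasl1 and Rsad2 are missing as well. Per cell the summed inflammatory list had a median of 0.462 per 500, a second highest cell of 3.39 and a highest of 12.5. At 500 UMIs per cell it was found in 40.7% of cells, and free RNA would give 39.9%. The interferon list was found in 42.9% against 46.6% in free RNA. Free RNA also reached the detection of Cx3cr1 and P2ry12 above. Detection near that of free RNA therefore does not tell expression by a cell from background.

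Single cells stood out from the rest. The cell at 12.5 had 1036 UMIs with 16 of the 22 UMIs of the chemokine Ccl4 and 7 of the 10 of Ccl3. It also had the highest immediate early sum, 17.9 per 500, against 8.82 in the next cell, with 8 UMIs of the transcription factor Egr1 and 6 of Ier2. Its homeostatic sum was 46.8, at the median of all cells. The highest cell for interferon genes had 760 UMIs and 18.4 per 500, against 5.91 in the next cell, with 7 UMIs of the antiviral tether Bst2 and 5 of the 6 of Ifitm3. It also had 4 of Trim30a, the highest antigen presentation sum (9.21) and a homeostatic sum of 48.0. Both cells thus held a state list beside a homeostatic sum near the median of all cells. The chemokine cell had 31 UMIs of Cst3, 7 of Cx3cr1 and 1 of P2ry12, and the interferon cell 24, 1 and 1. Each held fewer than 5 UMIs per 500 of every list of another cell type.

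Among the remaining lists, B2m, the light chain of MHC class I, had a mean of 1.01 and lay above the limit, while the heavy chain H2-D1, with a ratio of 1.22, did not. The MHC class II genes H2-Aa and H2-Eb1 have missing values, and Cd74, their invariant chain, had 4 UMIs. Of the immediate early list, Jun (1.36) and Klf6 (1.26) of 6 measured genes were above the limit, a share near the 28.8% of all genes. Rhob, its most abundant member (mean 0.428), had 1.20. DNA replication and repair genes were sparse. Rad50, part of the complex that binds broken DNA ends, was the only member with a mean of 0.1 and had a ratio of 1.33, whereas the sum of the list had 1.08. Parp1, with 51 UMIs in 43 cells, was next in UMIs. Of the antioxidant list, Nfe2l2, the factor that drives it, had 1.15, and the sum had 1.22.

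**Figure D3:**
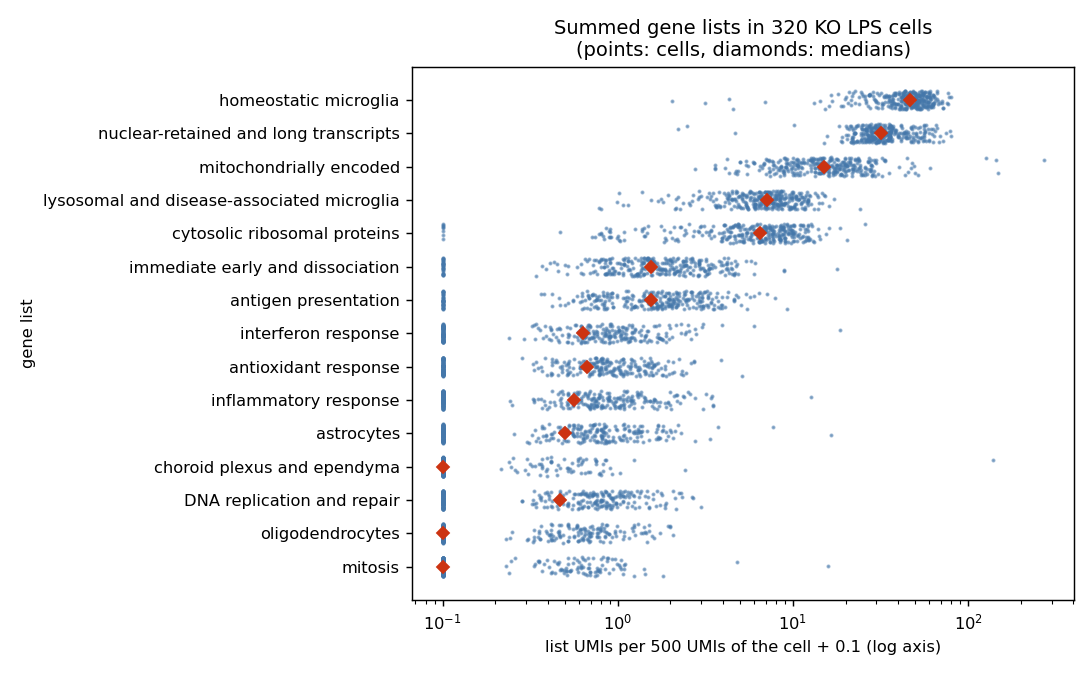
Summed UMIs of 15 gene lists per 500 UMIs of the cell plus 0.1 (log axis) in 320 KO LPS cells, with points for cells (shifted vertically at random to be seen) and diamonds for medians. Homeostatic sums lie around 46.7, with 5 cells below 10. The interferon, inflammatory, mitosis and choroid plexus lists each hold 1 cell far to the right, at 18.4, 12.5, 15.8 and 138, and the next mitosis cell is at 4.70.

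Gene pairs that varied together were sought among the 349 genes with a mean of at least 0.2, as Pearson's r over the 320 cells at 500 UMIs. All points share 1 library, the 2 pooled mice and the same free RNA. Of 60726 pairs, 40 (0.0659%) had an r of at least 0.3 in size, 37 positive and 3 negative. The median r was -0.00, and the 1st and 99th percentiles were -0.09 and 0.12. Nearly all pairs thus had an r close to 0 at this depth, and counting alone keeps r small for sparse genes.

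The listed positive pairs formed 3 groups. The first was mitochondrial and held 26 of the 28 possible pairs among the 8 genes. mt-Rnr1 and mt-Rnr2 had an r of 0.79, mt-Co1 and mt-Cytb 0.53, and mt-Nd2 and mt-Rnr2 0.52. The group rested on few cells. Without the 4 cells above 100 mitochondrial UMIs per 500, r of mt-Rnr1 and mt-Rnr2 was 0.33 and 11 pairs in all were listed. Without the 6 cells of other lists 11 pairs were listed too, 8 positive and 3 negative.

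The second group held 7 genes joined by 6 pairs, with Cst3 in 5 of them. Cst3 went with C1qb (0.37), Ctss (0.37), Tmsb4x (0.36), Actb (0.33) and C1qa (0.32), and Actb with Lrrc58 (0.40), a leucine-rich repeat protein. Apart from Lrrc58, these genes encode secreted, lysosomal and cytoskeletal proteins. The third group was Malat1 with Gm26924 (0.34). The 3 negative pairs joined these groups. Malat1 ran against Cst3 (-0.45) and Tmsb4x (-0.31), and Gm26924 against Cst3 (-0.30). Over the 14 other choices of cells and depth, r of Malat1 and Cst3 lay between -0.53 and -0.34. The other 9 of these 10 pairs kept their sign, and each fell below 0.3 in size under at least 1 choice. The values smallest in size were 0.17 for Actb and Cst3, -0.18 for Gm26924 and Cst3, 0.23 for C1qa and Cst3 and -0.24 for Malat1 and Tmsb4x. Malat1 was close to unrelated to Cx3cr1 (-0.05) and mt-Rnr2 (0.05), and ran weakly against P2ry12 (-0.23).

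**Figure D4:**
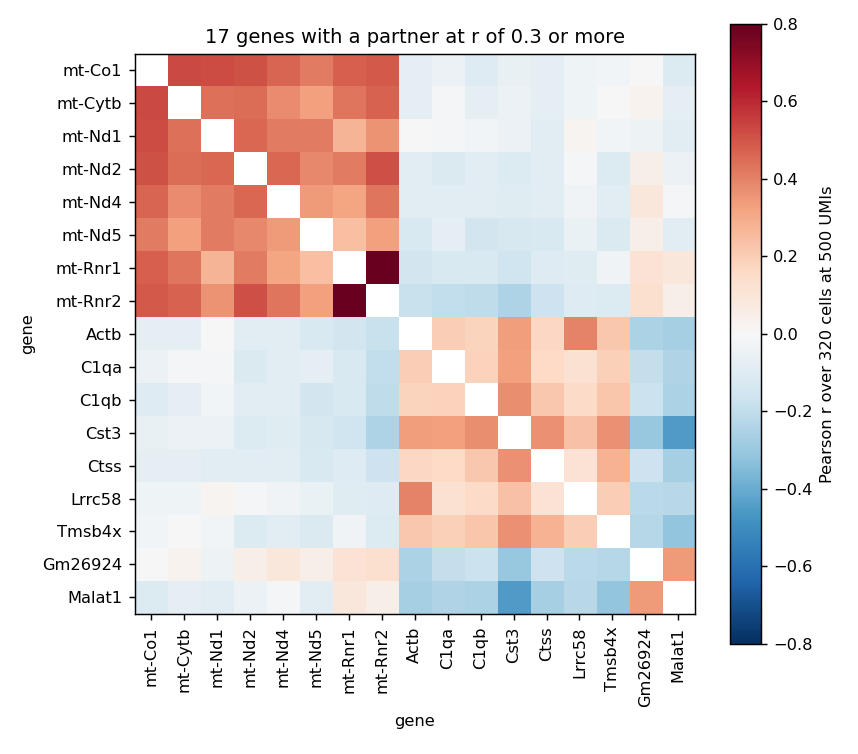
Pearson's r over 320 KO LPS cells at 500 UMIs for 17 genes with a positive partner at 0.3 or more, red for positive and blue for negative, with the diagonal left white. The mitochondrial genes form the upper block, the 7 genes around Cst3 the middle block, and Gm26924 and Malat1 are blue against the middle block, down to -0.45 for Cst3.

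The contrast between Malat1 and Cst3 can be read in levels. In the 107 cells with the lowest Malat1 its mean was 15.1, in the 107 in the middle 21.7 and in the 106 with the highest 34.7. Cst3 was at 14.9, 12.9 and 7.98 in these cells, Ctss at 4.70, 4.12 and 2.96, and Tmsb4x at 3.75, 3.64 and 2.04. The ribosomal protein sum was at 7.98, 6.83 and 4.39. Cx3cr1 did not follow, at 3.20, 3.66 and 3.15, and neither did mt-Rnr2, at 14.6, 12.7 and 15.9. Gm26924 was at 0.479, 0.614 and 1.48. The levels of a cell sum to a fixed total, and per 500 UMIs other than Malat1, Cst3 was at 15.3, 13.5 and 8.51. The median depth of these cells was 1048, 1060 and 773 UMIs. The parts of the fixed total and of depth in the result were not tested.

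**Figure D5:**
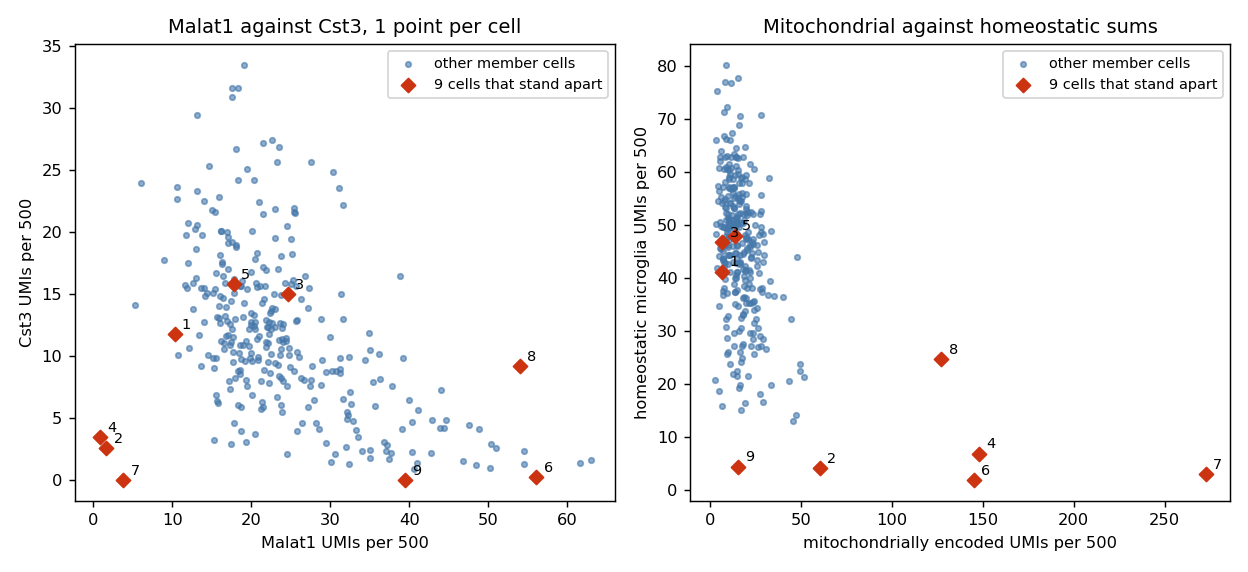
Single KO LPS cells in UMIs per 500 UMIs of the cell, Malat1 against Cst3 (left) and the mitochondrial against the homeostatic sum (right). Red diamonds are 9 cells that stand apart: 1 mitosis, 2 choroid plexus, 3 chemokines, 4 and 7 astrocyte genes, 5 interferon, 6 endothelial and mural cell genes, 8 mitochondrial RNA, 9 neuronal genes. Cst3 falls as Malat1 rises among the blue cells, and cells 4, 6, 7 and 8 lie beyond 100 on the mitochondrial axis.

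The homeostatic genes themselves had low r with one another at this depth. Counting gave most of the variance of P2ry12 and Cx3cr1 and holds r down. A low r here therefore does not show that the genes vary independently. Among 378 pairs of 28 genes the median r was 0.03, 287 pairs were above 0, the range was -0.08 to 0.37 and 3 pairs were listed, all with Cst3. P2ry12 and Cx3cr1 had an r of 0.08, Cst3 and P2ry12 0.18, and Cst3 and Cx3cr1 0.09. The subunits of the C1q complex, which is assembled from C1qa, C1qb and C1qc, had values of 0.13 to 0.19. The chaperones Hsp90b1 and Hspa5 of the endoplasmic reticulum had 0.14.

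Sums of lists carry more UMIs than single genes and showed clearer relations. Of 105 pairs among 15 lists, 8 reached 0.3 in size. The homeostatic sum ran with the lysosomal sum (0.40) and the ribosomal sum (0.34), and against the nuclear and long transcripts (-0.52) and the mitochondrial sum (-0.40). The nuclear and long transcripts also ran against the ribosomal (-0.48) and lysosomal sums (-0.42). These 6 relations kept their sign and stayed between 0.26 and 0.62 in size over the 14 other choices of cells and depth. The other two depended on few cells. The mitochondrial and astrocyte sums had 0.50, and -0.05 without the cells of other lists. The immediate early and inflammatory sums had 0.34, and 0.07 without the chemokine cell and the interferon cell.

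The library mixed a female and a male mouse, and Xist was read in that light. Xist had a UMI in 209 cells, at most 24 in 1 cell, and Y-linked genes (Ddx3y, Eif2s3y, Uty and Kdm5d) had 30 UMIs in 21 cells. Of these, 9 cells had both, and 99 cells had neither. Xist was present in 42.9% of cells with a Y-linked UMI and in 66.9% of the others. At 500 UMIs it was found in 50.2% of cells, below the 64.4% that the same mean would give by counting alone, as is the case when a gene is unevenly held. Free RNA would give 60.9%, so a single Xist UMI does not assign a cell to the female mouse. The 200 cells with Xist and no Y-linked UMI had means of 11.9 for Cst3, 3.22 for Cx3cr1, 1.80 for P2ry12 and 24.1 for Malat1. The 99 cells with neither had 11.9, 3.53, 1.91 and 23.5. The 12 cells with a Y-linked UMI and no Xist had 15.5, 3.27, 2.65 and 18.6, and the 9 cells with both had 9.61, 4.06, 0.893 and 27.2. The differences between these sets of cells of 1 library were not tested.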

How the data were processed

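Drop-seq counts of 320 cells of 1 KO LPS library were analysed. Raw counts of UMIs, not normalised, were deposited by the authors for every gene and barcode, in an unfiltered matrix of 9999 barcodes that listed 13921 genes, with missing values for 5616. The submitters' processing notes name bcl2fastq 2.0, STAR and the builds mm9 and mm10. The counting program and annotation are not given in the sources used here, nor whether strand was used, so counts of overlapping genes are uncertain. Depth was 501 to 4292 UMIs per cell. The study called cells with DropletUtils. Here the limits were 500 UMIs and 100 genes. Doublets were left in.

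Means, variances and correlations at 500 UMIs were computed as exact expectations over all random thinnings with numpy 2.4.6 and scipy 1.17.1 in Python 3.11.15. Lists were summed, and in a pair of lists shared genes were left out of both. Free RNA was the pool of barcodes with at most 100 UMIs. The code was tested on simulated data. Genes were named by a rule: the knocked-out gene, the markers, the 15 highest means, the 15 highest ratios, the genes of extreme pairs, for each list its most abundant and most variable member, and Xist with the Y-linked genes. Others, such as genes inside single cells, pairs of known partners, list members below the limit, and the sets of cells by Malat1 and depth, were chosen after their values were seen. Members and lists were chosen with earlier results of these data known. Coordinates of genes are GRCm39 (GENCODE vM39), found by symbol. Alternatives changed the depth, the thinning, the filters and the cells kept, with Scrublet (scanpy 1.11.5) for doublets. The wildtype matrix served only to count cells and shared barcodes. Some results picked by the rule are not reported here. No cell was assigned to 1 of the 2 mice.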

Additional observations from a re-analysis of the deposited data

How the results depend on the processing

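The number of genes above the spread limit, 261, changed with many choices of depth and filters. Thinned to 1000 UMIs, in the 148 cells that reached this depth, it stayed near, at 271 of 886 genes. It was 74 when thinned to 300 UMIs, 576 when scaled without thinning, 448 at a mean of at least 0.05, 1182 for genes in at least 3 cells and 42 at a ratio of at least 1.5. It was 150 in the 200 cells with Xist and no Y-linked UMI, 147 in the 111 cells with no Xist UMI and 58 in the 160 cells above the median depth, against 239 in the 160 cells at or below it under the same limit. The 40 listed pairs became 23 at 300 UMIs, 78 when scaled, 19 at a mean of at least 0.5, 89 at an r of at least 0.2, 21 and 83 in the cells with and without Xist, and 11 without the cells of other lists or without the 4 cells high in mitochondrial RNA. The 8 pairs of lists became 13 when scaled. At a limit of 1000 UMIs, 148 cells were left of 320. Signs turned for the mitochondrial and astrocyte lists (-0.0519 without the cells of other lists, -0.00489 without the cells high in mitochondrial RNA) and for the immediate early and inflammatory lists (-0.0151 in cells with no Xist UMI). The cause was not tested. Of 895 single ratios and correlations recomputed, 640 moved little, 252 moved more with the same sign, and 3 turned. The alternatives on depth sets, near-identical barcodes, mitochondrial RNA and the 2 activated cells were added after seeing the data. Scrublet called 19 cells (5.94%), and without them 258 genes and 40 pairs were listed. No paired analysis was possible because there is 1 library per genotype and the result comes from no test. Doublets were otherwise left in, and genes with a mean under 0.1 UMI were too sparse to enter the main results.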
